A study of Mus musculus with 2 samples.

Results

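The genes that write, erase and read N6-methyladenosine (m6A) on RNA were followed in the second polar body (PB2) and in the zygote it was extruded from. The set was fixed by name and holds Mettl3, Mettl14, Wtap, Alkbh5, Fto, Ythdf2, Ythdf3, Ythdc1, Ythdc2 and Igf2bp2. All 10 were found by symbol among the 11262 genes of the deposited table. The study compared PB2 with the zygote in search of molecules that PB2 might supply to the embryo. Its RNA-seq data consist of 1 library of PB2 and 1 library of zygotes, each made from pooled material of untreated mouse embryos of strain C57BL/6 (C57BL/6N in the study's methods). The embryos were taken from the oviduct, cultured in KSOM medium and sampled late in the 1-cell stage, when the zona pellucida was dissolved with acid Tyrode's solution and PB2 was detached in trypsin by pipetting.

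m6A is the most common internal modification of messenger RNA. A methyltransferase complex built on METTL3 and METTL14, with WTAP as its targeting subunit, places it, and the demethylases ALKBH5 and FTO remove it. YTH-domain proteins bind the mark directly and direct the transcript to splicing, export, translation or decay, while IGF2BP proteins favour stability and translation. The oocyte is largely silent in transcription when it is fertilized, so its stored maternal RNA is controlled after transcription. YTHDF2-dependent decay of maternal transcripts is one such control in mouse.

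Levels are given as TPM, a transcript's share of its library per unit of gene length, which allows for length when genes are compared. What amplification and base composition add to differences between genes was not tested. They were deposited to 1 decimal. A TPM is a proportion and says nothing of how much RNA a PB2 or a zygote holds, and fewer cells of a kind cannot be told apart from less RNA per cell. The number of reads behind a TPM is unknown, so no counting interval can be given. There were no replicates, so replicate spread is unknown and no test was run. Ranges given beside a ratio cover the rounding of the deposited values only. The log2 ratio is log2((PB2 TPM + 1)/(zygote TPM + 1)), in which the added 1 understates differences of low genes. It was compared for the 10645 genes with at least 1 TPM in either library. The median log2 ratio of these genes was 0.21, so a gene with a log2 ratio of 0.21 sat at the middle of the table, and centred values, from which this median was subtracted, are given where they matter.

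Both libraries carried the oocyte programme. All 11 oocyte markers examined, among them Gdf9 and Bmp15, were in the table, with a lowest level of 99.5 TPM in PB2 and of 62.7 TPM in the zygote, and summed to 27997 TPM in PB2 against 23687 TPM in the zygote. Of 13 cumulus and granulosa cell markers 3 were in the table, and they summed to 75.6 TPM in PB2 against 74.7 TPM in the zygote, nearly all of it Cyp19a1. Of 6 sperm and spermatid markers 2 were in the table, at 23.1 TPM and 20.9 TPM in sum. The part of these cells in the results was not tested.

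The 10 genes stood in the same order of level in PB2 and in the zygote. From the highest to the lowest it was Wtap, Alkbh5, Igf2bp2, Ythdf3, Ythdf2, Mettl3, Ythdc1, Ythdc2, Mettl14 and Fto. Within this order the distances differed. Their summed level was 988.2 TPM in PB2 against 771.4 TPM in the zygote. Wtap made up 62.0% of that sum in the zygote and 44.5% in PB2, Alkbh5 11.4% and 19.7%, and Igf2bp2 9.41% and 17.5%. How far neighbours in this order differ beyond replicate spread cannot be said from 1 library each.

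**Figure D1:**
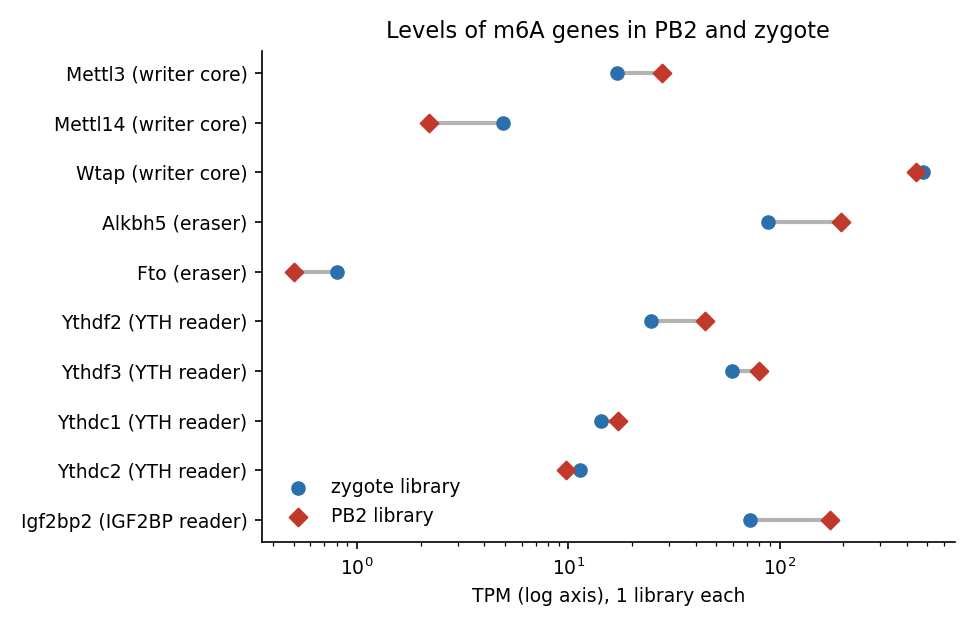
TPM of the 10 m6A genes on a log axis, with a circle for the zygote library and a diamond for the PB2 library, 1 library each, and the role of the gene in brackets. Alkbh5 (88.0 TPM in the zygote, 194.7 TPM in PB2) and Igf2bp2 (72.6 and 172.6 TPM) lie to the right in PB2, Mettl14 (4.90 and 2.20 TPM) lies to the left, and the Wtap symbols nearly coincide.

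Of the 9 genes that reached 1 TPM in either library, Alkbh5 and Igf2bp2 differed by 2-fold or more towards PB2 and none towards the zygote. Fto was under 1 TPM in both and was not compared. Over all genes compared, 18.9% passed 2-fold towards PB2 and 8.09% towards the zygote. The 2 of 9 genes, or 22.2%, are near that background. The median log2 ratio of the 9 genes was 0.42, with 6 above 0 and 3 below, and ranged from -0.88 for Mettl14 to 1.24 for Igf2bp2. After centring, which leaves 13.0% of all genes past 2-fold towards PB2 and 12.1% towards the zygote, Igf2bp2 alone passed 2-fold towards PB2 and Mettl14 alone passed it towards the zygote.

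Among the writers, the transcripts of the subunits did not share 1 direction. Mettl3 (ENSMUSG00000022160; GRCm38 chromosome 14, 52294841 to 52305128, minus strand), the catalytic subunit, stood at 16.9 TPM in the zygote and at 27.7 TPM in PB2. Its log2 ratio was 0.68, and 69.7% of the genes compared had a lower one. Exons of Mettl3 overlap those of Tox4 on the opposite strand. The counting is not stated to use strand, so reads in the overlap cannot be assigned with certainty to either gene.

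Mettl14 (ENSMUSG00000028114; chromosome 3, 123368297 to 123386108, minus strand), the RNA-binding partner that METTL3 needs, stood at 4.90 TPM in the zygote and at 2.20 TPM in PB2. The TPM ratio of PB2 to zygote was 0.449, with a rounding range of 0.434 to 0.464, which is more than 2-fold, while the log2 ratio with the added 1 was -0.88. Of the genes compared, 9.99% had a lower log2 ratio. At such a level an unknown number of reads stands behind each value. In both libraries Mettl14 was the lowest of the 3 writer genes.

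The balance between the heterodimer's transcripts can be read within each library, where the scaling of the libraries to each other plays no part. It concerns RNA only, as protein was not measured here. Mettl3 had 3.45 times the TPM of Mettl14 in the zygote (rounding range 3.40 to 3.49) and 12.6 times in PB2 (12.3 to 12.9). The rounding ranges do not overlap, and what counting error and amplification add to them is unknown. GC content differs between the transcripts, at 50.2% for Mettl3 and 41.2% for Mettl14. With the trend on GC content subtracted, as described below, their log2 ratios were 0.39 and -0.61, against 0.68 and -0.88. The part of GC content in this balance was not tested.

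Wtap (ENSMUSG00000060475; chromosome 17, 12966796 to 12994169, minus strand), which anchors the catalytic pair and brings it to its targets in nuclear speckles, was by far the most abundant. It stood at 478.5 TPM in the zygote and at 439.9 TPM in PB2, and it was exceeded by 2.43% of all genes in the zygote and by 2.51% in PB2. The log2 ratio was -0.12. Relative to Mettl3 its level was 28.3 times in the zygote and 15.9 times in PB2. Wtap has 39.6% GC and Mettl3 50.2%. With the trend on GC content subtracted, their log2 ratios were close, at 0.23 for Wtap and 0.39 for Mettl3.

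The erasers were of very unequal level. Alkbh5 (ENSMUSG00000042650; chromosome 11, 60536381 to 60558512, plus strand), a nuclear demethylase known for its role in male fertility, stood at 88.0 TPM in the zygote and at 194.7 TPM in PB2. The TPM ratio was 2.21 and the log2 ratio 1.14, and 1571 of the genes compared had a larger one. Centred, the log2 ratio was 0.93, under 2-fold. Fto (ENSMUSG00000055932; chromosome 8, 91313525 to 91668439, plus strand), whose protein also demethylates the cap-adjacent form of the mark, stood at 0.80 TPM in the zygote and at 0.50 TPM in PB2, close to the smallest step of the table. Exons of Fto overlap those of an antisense gene and of a gene of unconfirmed type on the opposite strand. Alkbh5 thus held 99.1% of the eraser TPM in the zygote and 99.7% in PB2.

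The YTH readers were closer together. Ythdf2 (ENSMUSG00000040025; chromosome 4, 132184912 to 132212303, minus strand), the cytoplasmic reader that brings m6A transcripts to deadenylation, stood at 24.6 TPM in the zygote and at 44.1 TPM in PB2, a log2 ratio of 0.82. Ythdf3 (ENSMUSG00000047213; chromosome 3, 16183212 to 16217037, plus strand), its cytoplasmic paralogue, had 59.5 TPM and 79.7 TPM, a log2 ratio of 0.42. Both were higher in PB2 and neither reached 2-fold.

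Ythdc1 (ENSMUSG00000035851; chromosome 5, 86804221 to 86836659, plus strand), the nuclear reader that acts in splicing, polyadenylation and export and is needed for oocyte growth, stood at 14.3 TPM in the zygote and at 17.1 TPM in PB2. Its log2 ratio of 0.24 lay close to the median of all genes. An exon of Ythdc1 overlaps a non-coding gene on the same strand. Ythdc2 (ENSMUSG00000034653; chromosome 18, 44827746 to 44889724, plus strand), an RNA helicase with a YTH domain that is needed for meiotic entry of germ cells, stood at 11.3 TPM in the zygote and at 9.70 TPM in PB2, a log2 ratio of -0.20. Within a library Ythdc1 had 1.27 times the TPM of Ythdc2 in the zygote and 1.76 times in PB2. With the trend on GC content subtracted, their log2 ratios were 0.31 and 0.03.

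Igf2bp2 (ENSMUSG00000033581; chromosome 16, 22059009 to 22163299, minus strand), a KH-domain protein that binds and stabilizes target transcripts, had the highest log2 ratio of the set. It stood at 72.6 TPM in the zygote and at 172.6 TPM in PB2, a TPM ratio of 2.38 and a log2 ratio of 1.24. A larger log2 ratio was found for 1305 of the genes compared. Centred, its log2 ratio was 1.03, just past 2-fold.

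The log2 ratio of these libraries goes with the GC content of the transcript. Over the 10606 genes compared with a protein-coding transcript in GENCODE M21, Spearman's rho was 0.44, given as a description across genes that share both libraries. The m6A genes are mostly poor in GC, and 7 of the 10 lay below the median of 49.1% of all genes compared. The 3 with the most GC, Igf2bp2 (51.3%), Mettl3 (50.2%) and Alkbh5 (50%), all had log2 ratios above 0.21, while Mettl14 (41.2%), Wtap (39.6%) and Ythdc2 (42.0%) had log2 ratios below 0. The other 3 genes compared that lay below the median GC content, Ythdf2 (46.1%), Ythdc1 (44.8%) and Ythdf3 (38.4%, the lowest), had log2 ratios above 0.21. The part of base composition in the results cannot be told apart from a difference between PB2 and zygote.

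**Figure D2:**
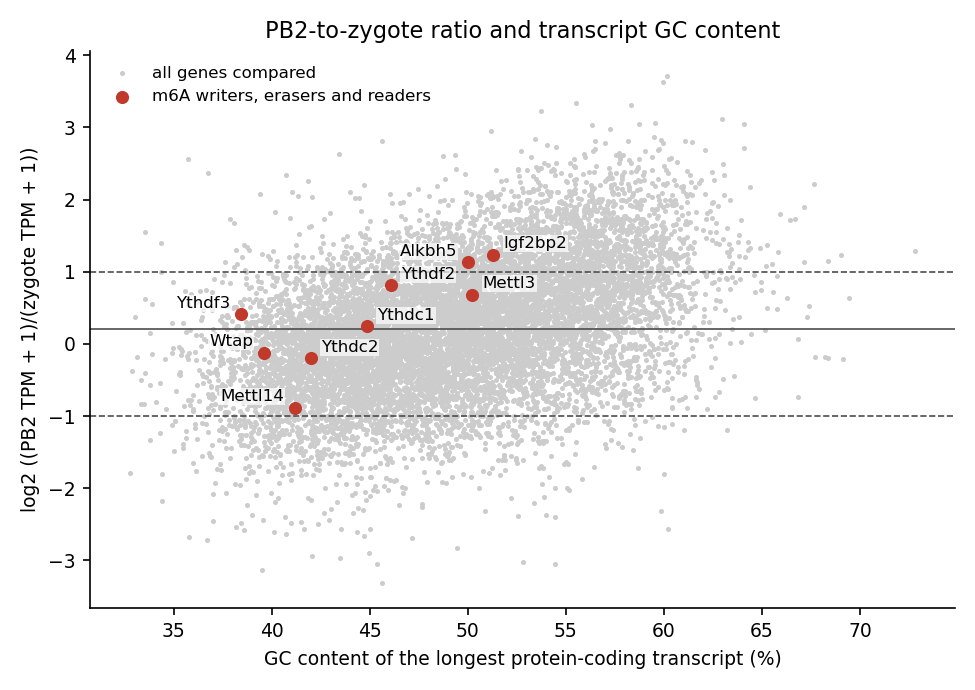
Log2 ratio of PB2 to zygote (y axis, pseudocount of 1) against GC content of the longest protein-coding transcript (x axis, %) for all genes compared (grey points) and the 9 m6A genes compared (red, named), with dashed lines at 2-fold and a solid line at the median of 0.21. Alkbh5 and Igf2bp2 lie above the upper dashed line near 50% GC, and Mettl14 lies just inside the lower one at 41.2%.

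After subtraction of the GC trend, 9.08% of all genes passed 2-fold towards PB2 and 11.0% towards the zygote, and none of the m6A genes passed 2-fold in either direction. The adjusted log2 ratios were 0.87 for Igf2bp2, 0.86 for Alkbh5, 0.82 for Ythdf3 and 0.82 for Ythdf2. Mettl14 was at -0.61 and was the only one of the 9 below 0. Wtap went from -0.12 to 0.23 and Ythdc2 from -0.20 to 0.03, so these small differences have no settled direction.

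**Figure D3:**
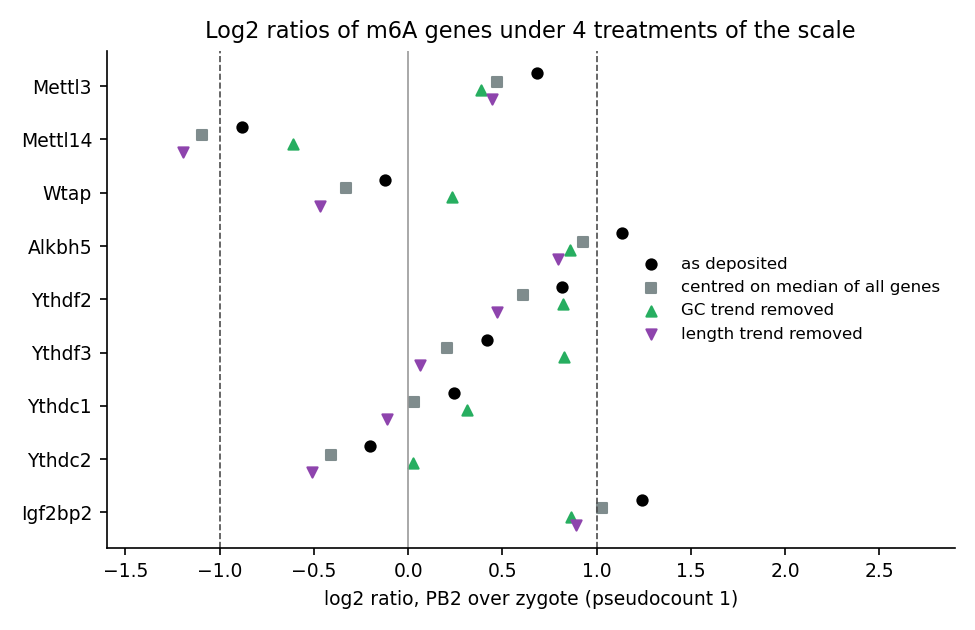
Log2 ratio of PB2 to zygote (x axis) of the 9 m6A genes compared, as deposited (circles), centred on the median of all genes (squares), with the GC trend removed (upward triangles) and with the length trend removed (downward triangles), and dashed lines at 2-fold. Alkbh5, Igf2bp2, Ythdf2, Ythdf3 and Mettl3 stay right of 0 and Mettl14 left of 0 in the 4 treatments. Wtap, Ythdc1 and Ythdc2 cross 0.

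The YTHDF family has another member, Ythdf1, best known for promoting translation of its targets. It stood at 9.20 TPM in the zygote and at 28.6 TPM in PB2, a log2 ratio of 1.54. Ythdf1 was the lowest of the 3 paralogues in both libraries, and its share of their summed TPM was 9.86% in the zygote and 18.8% in PB2. Ythdf3 held 63.8% in the zygote and 52.3% in PB2, and the share of Ythdf2 was 26.4% and 28.9%. The ratio of Ythdf2 to Ythdf3 was 0.413 in the zygote and 0.553 in PB2. With the GC trend removed, Ythdf2 and Ythdf3 had the same log2 ratio, 0.82, and that of Ythdf1 was 1.34. With the length trend removed instead, the log2 ratios of Ythdf2 and Ythdf3 still differed, at 0.47 and 0.06. The part of GC content in the shift between them was not tested.

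**Figure D4:**
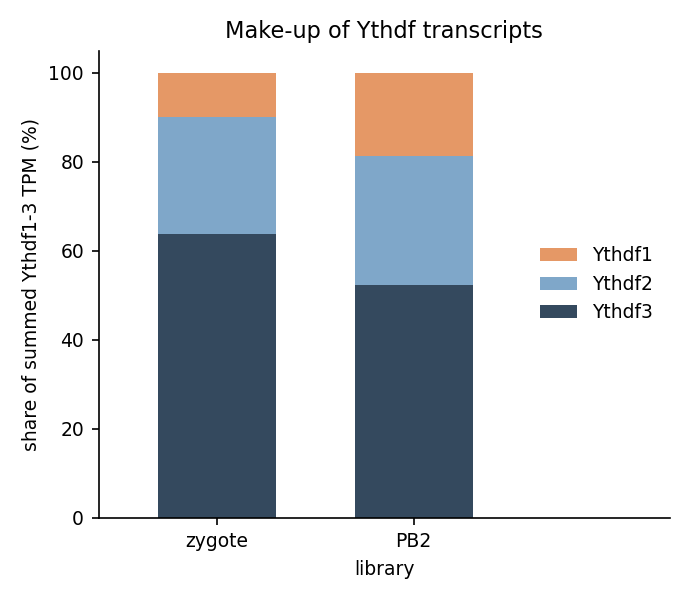
Share of the summed TPM of Ythdf1, Ythdf2 and Ythdf3 (y axis, %) in the zygote library and the PB2 library, 1 library each. The Ythdf1 segment is 9.86% in the zygote and 18.8% in PB2, the Ythdf3 segment 63.8% and 52.3%. The shares are not adjusted for GC content.

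The rest of the pathway was followed through 33 further genes, of which 31 were in the table and 30 were compared. Past 2-fold towards PB2 were 7 genes, 23.3%, and towards the zygote 2 genes, 6.67%, again near the shares over all genes. Their median log2 ratio was 0.21, that of the whole table. After centring 4 passed towards PB2 and 3 towards the zygote, and with the GC trend removed 3 and 3.

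Of the 6 genes of the writer complex and its regulators, Zc3h13 and Rbm15b were at least 2-fold higher in PB2. That is 33.3%, against 18.9% over all genes. Zc3h13, which keeps the complex in the nucleus, stood at 38.2 TPM in the zygote and at 88.3 TPM in PB2, and Rbm15b, an adaptor that recruits it to RNA, had 4.30 and 9.70 TPM. Their log2 ratios of 1.19 and 1.01 were 0.98 and 0.80 when centred, both under 2-fold. They were 0.90 and 0.24 with the GC trend removed. Virma, the scaffold subunit, stood at 45.1 TPM in the zygote and at 35.9 TPM in PB2. None of the 6 genes listed with the other methyltransferases reached 2-fold as deposited. Their log2 ratios ran from -0.62 for Mettl16 to 0.53 for Mettl5. With the GC trend removed, Pcif1, the cap methyltransferase, went from -0.52 to -1.32, past 2-fold towards the zygote.

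Of 11 other readers in the table, 4 passed 2-fold towards PB2 (18.9% over all genes), namely Prrc2a, Ythdf1, Fxr2 and Snd1. Prrc2a stood at 2.10 TPM in the zygote and at 13.3 TPM in PB2, a log2 ratio of 2.21, and its transcript has the highest GC content of the list, 60.6%. With the GC trend removed its log2 ratio was 1.23 and that of Ythdf1 was 1.34, while Fxr2 went from 1.43 to 0.54 and Snd1 from 1.11 to 0.92, under 2-fold. Snd1 was also under 2-fold when centred, at 0.90. Igf2bp3, the paralogue of Igf2bp2, stood at 13.3 TPM in the zygote and at 26.5 TPM in PB2, and Igf2bp2 held 84.5% of their sum in the zygote and 86.7% in PB2. Hnrnpa2b1 and Hnrnpc, nuclear RNA-binding proteins, lay on the other side. Hnrnpa2b1 stood at 107.1 TPM in the zygote and at 56.2 TPM in PB2, and Hnrnpc had 630.4 and 380.1 TPM, with log2 ratios of -0.92 and -0.73.

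The genes through which YTH proteins act on RNA were split. Upf1, a helicase of RNA decay, stood at 5.10 TPM in the zygote and at 23.2 TPM in PB2, a log2 ratio of 1.99. Rida, which encodes the adaptor between YTHDF2 and RNase P/MRP, stood at 14.8 TPM in the zygote and at 2.60 TPM in PB2, with a log2 ratio of -2.13, the lowest of the pathway genes compared. Cnot1, the scaffold of the CCR4-NOT deadenylase that YTHDF2 binds, had 17.3 and 11.3 TPM. The log2 ratios of Upf1, Rida and Cnot1 were 1.13, -1.90 and -0.56 with the GC trend removed. Meioc, the meiotic partner of YTHDC2, had 0.90 TPM in the zygote and was listed at 0 in PB2. Among the genes that supply the methyl donor S-adenosylmethionine, Mat2b, the regulatory subunit of its synthase, stood at 1542.5 TPM in the zygote and at 702.0 TPM in PB2, a log2 ratio of -1.13. Mat2a, the catalytic subunit, had 40.9 and 56.8 TPM.

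**Figure D5:**
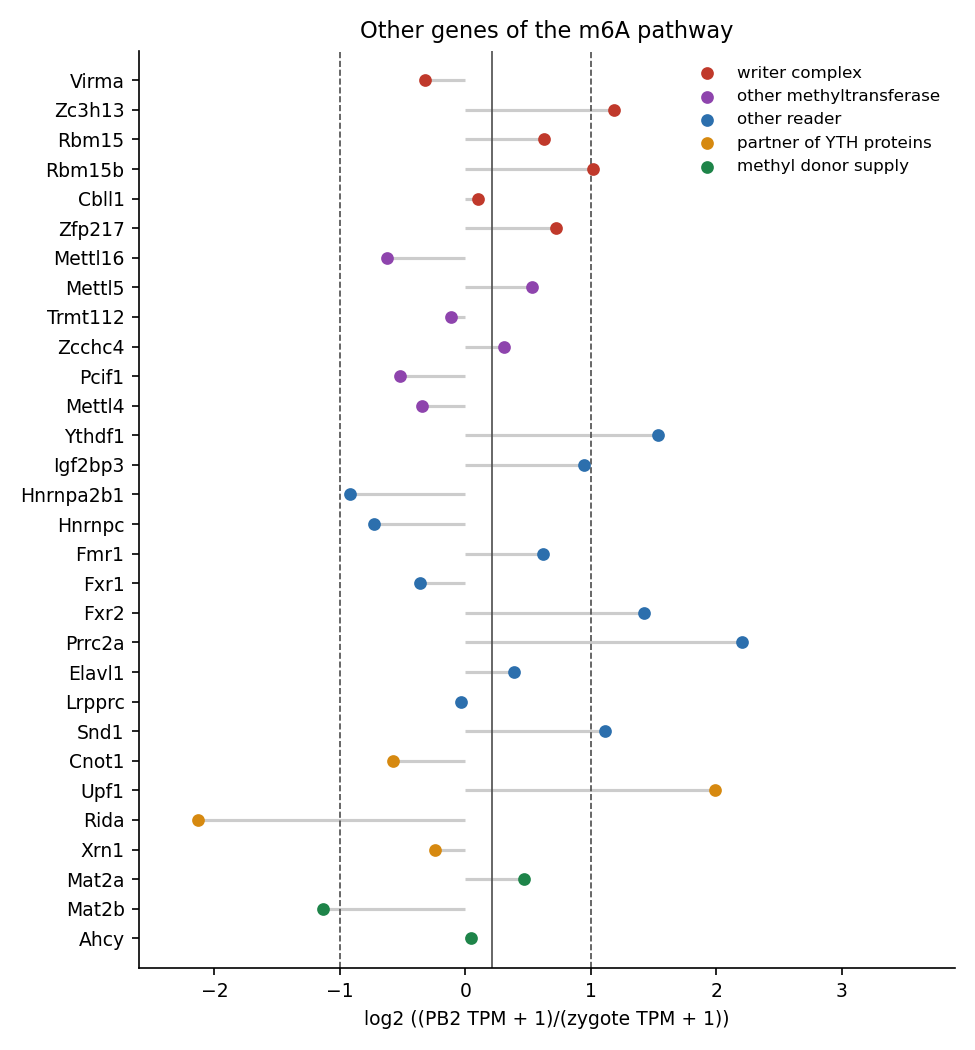
Log2 ratio of PB2 to zygote (x axis, pseudocount of 1) for the 30 other pathway genes compared, coloured by role, with dashed lines at 2-fold and a solid line at the median of all genes, 0.21. Prrc2a (2.21) and Upf1 (1.99) lie farthest to the right and Rida (-2.13) farthest to the left.

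Both libraries were made from polyadenylated RNA, and the oocyte lengthens or shortens the tails of stored transcripts through elements near their ends. For each member, the last 100 bases of its longest protein-coding transcript were therefore searched, on the transcript strand, for the polyadenylation hexamers AATAAA or ATTAAA and for the cytoplasmic polyadenylation element TTTTAT or TTTTAAT. A hexamer was found in 8 of the 10 genes, against 82.1% of 10085 genes compared with such a window, and the cytoplasmic element in 1 of the 10, Mettl14, against 20.1%. In Mettl14 that element starts 45 bases and the hexamer 22 bases before the annotated end. No hexamer was found for Fto and Igf2bp2. A match is a description of these annotated ends, and the ends used in the oocyte may differ. The ends of Mettl14, the member lowest in PB2 relative to the zygote, of Alkbh5, which was higher in PB2, and of Wtap, whose levels were close, are shown 5′ to 3′ from GENCODE M21 on GRCm38, with the matches in capitals. They lie at chr3:123368312-123368341 (minus strand), chr11:60558477-60558506 (plus strand) and chr17:12972692-12972721 (minus strand). The Wtap stretch is the end of its longest protein-coding transcript only. It lies inside the annotated gene, which runs on in the 3′ direction to 12966796.
Mettl14: TTTTATtttgctataacttttctAATAAAa
Alkbh5: catactgagttaAATAAAatacattattta
Wtap: tgtatctcaaagAATAAAcaaaagaactac
Among these ends the Mettl14 stretch alone holds both kinds of element. Whether the cytoplasmic element bears on the level of Mettl14 was not tested.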

How the data were processed

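RNA-seq values of 1 PB2 library and 1 zygote library were analysed. Full-length cDNA was amplified with a single-cell kit before library preparation. Per the submitters' processing notes and the study's methods, reads were aligned with HISAT2 2.0.4, counted with HTSeq 0.6.1p1 and processed with DESeq2 1.18.1. The notes name both OryCun2.0, a rabbit assembly, and GRCm38, and the identifiers of the table are mouse ones. The authors deposited TPM rounded to 1 decimal, and how TPM was derived from counts is not given in the sources used here. The table's values sum to 89.8% of a full library in PB2 and 92.7% in the zygote. Columns were matched to samples by name, and 0 were left over.

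Genes with at least 1 TPM in either library were compared by log2 ratio with a pseudocount of 1, and a 2-fold difference was the threshold. With 1 library per condition no test was made. Positions, GC content and lengths are those of GENCODE M21. The longest protein-coding transcript was used. Trends on GC content or log10 length were fitted by loess (span 0.3) and subtracted. The subtraction for GC content was tested on simulated data, and that for length was not. A log2 value was taken as unchanged within 0.5 and a count within 1.5 times. The genes named are the 10 members and the list of 33 other pathway genes. Members, lists and alternatives were chosen with earlier results of these data known, and the search of transcript ends was added after the values were seen. The software was matplotlib 3.10.9, statsmodels 0.14.6, scipy 1.17.1, pandas 2.3.3 and numpy 2.4.6 under Python 3.11.15.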

Additional observations from a re-analysis of the deposited data

How the results depend on the processing

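No paired analysis was possible because PB2 and the zygote have 1 library each. Of 11 alternatives, none turned an m6A gene past 2-fold to the other side. The median log2 ratio of these genes, 0.42 over 9 genes in the report, was above 0 under each alternative that changes it. It was lowest, 0.0645, with the length trend removed, and was 0.21 after centring. It was highest, 0.55, with a filter at 5 TPM, which leaves 8 genes and drops Mettl14. TPM were also rescaled after removal of the mitochondrial genome's transcripts and of the 50 genes highest in level. The median was then 0.25 over 10 genes, as Fto passed the filter. The number at least 2-fold higher in PB2, 2 in the report, was 1 after centring on the median, 0 with the GC or the length trend removed, 4 at a threshold of 1.5-fold and 0 at 4-fold. The number at least 2-fold higher in the zygote, 0 in the report, was 1, Mettl14, after centring, with the length trend removed, with pseudocounts of 0.1 and 0.01, after rescaling, and at 1.5-fold. Of the 30 other pathway genes, the 7 higher in PB2 became 4 after centring, 3 with the GC trend removed, 4 with the length trend removed, 11 at 1.5-fold and 1 at 4-fold. The 2 higher in the zygote became 4 with the length trend removed, 4 after rescaling, 5 at 1.5-fold and 1 at 4-fold. After rescaling 31 genes were counted, as Meioc passed the filter. The median of the other genes, 0.21 in the report, was -0.0045 after centring and 0.0051 with the length trend removed. Over 31 genes, it was 0.025 after rescaling and 0.10 with no filter. The threshold changes follow from the thresholds, and the filters and the rescaling also change which genes are counted. Beyond that and the shift of 0.21 the cause was not tested. Depth is unknown, so the counting error of low genes such as Mettl14, Fto and Meioc cannot be given.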
